A study of Mus musculus with 12 samples.

Results

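Expression of 7 genes of the immunoproteasome and of class I peptide loading was followed over 12 microarrays of mouse mammary tissue and breast cancer cell lines. The genes were Psmb8, Psmb9 and Psmb10 of the immunoproteasome, Tap1 and Tap2 of the peptide transporter, the loading factor Tapbp and the light chain B2m. They were chosen by name: every probe set of the array's annotation that names 1 of these genes alone was taken, which gave 12 probe sets out of 20380 that name a single gene, or 7 genes out of 12393. Each cell line was measured on 1 array: ME-B-T/t, labelled as retransformed, ME-B, labelled as a revertant, and ME-A. All 3 are labelled breast cancer cell lines, and the labels give no passage, culture condition or strain for them. Breast cancers of female WAP-SVT/t mice gave 3 arrays (583 tumor 1, 585pos1 tumor 2 and 597pos7 tumor 3). Mammary glands of female WAP-SVT/t mice on day 1 of lactation gave another 3, and glands of female NMRI mice on the same day gave the last 3. WAP-SVT/t animals are NMRI mice that make the SV40 T/t antigens, viral proteins of which the large one binds p53 and the retinoblastoma proteins, in the epithelial cells of the gland. By these labels both gland groups share strain, sex and lactation day and differ in the transgene, though probe sets of class I heavy chain genes also separated them, and the labels give no class I haplotype. No lactation stage is given for the tumors. The labels number the samples but do not state that each came from its own animal, so p-values measure the spread between these samples.

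Class I molecules carry short peptides to the cell surface, where CD8 T cells inspect them. The peptides are cut by the proteasome, and in cells exposed to interferon-gamma the immunosubunits encoded by Psmb8, Psmb9 and Psmb10 take the places of the constitutive catalytic subunits encoded by Psmb5, Psmb6 and Psmb7. The Tap1 and Tap2 proteins pump the peptides into the endoplasmic reticulum, tapasin (Tapbp) holds the empty class I molecule at the pump until a peptide fits, and beta-2 microglobulin (B2m) completes the molecule. Class I loading genes are known targets of interferon signalling and are often low in tumor cells.

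Of the 7 genes, 4 are consecutive protein-coding neighbors on chromosome 17 in the order Psmb9, Tap1, Psmb8, Tap2, by RefSeq's annotation. RefSeq promoter windows on GRCm38.p6, from 250 bases before to 50 bases after the gene start, were found for 6 of the 7 genes. Psmb9 and Tap1 are read in opposite directions from starts with 225 bases between them, and their windows share 275 bases. The Tap1 window is shown whole, and its first 275 bases are that common stretch. It is shown because both genes were among the most reduced in ME-B. The windows of Psmb8 and B2m are shown because they are the ones that hold an interferon-type motif. Capitals mark the GC box GGGCGG, in its reverse complement, in the Tap1 window at chr17:34187306-34187605 (plus strand), the gamma-activated sequence TTCNNNGAA in the Psmb8 window at chr17:34197945-34198244 (plus strand), and the interferon regulatory factor element (GAAA, any 2 bases, then GAAA again) in the B2m window at chr2:122147437-122147736 (plus strand).
Tap1 and Psmb9: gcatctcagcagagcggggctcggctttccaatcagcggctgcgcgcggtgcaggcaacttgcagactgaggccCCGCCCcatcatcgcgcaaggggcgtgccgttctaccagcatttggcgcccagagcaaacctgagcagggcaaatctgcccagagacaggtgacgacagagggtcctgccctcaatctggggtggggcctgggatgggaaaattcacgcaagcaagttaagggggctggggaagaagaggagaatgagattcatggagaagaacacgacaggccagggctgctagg
Psmb8: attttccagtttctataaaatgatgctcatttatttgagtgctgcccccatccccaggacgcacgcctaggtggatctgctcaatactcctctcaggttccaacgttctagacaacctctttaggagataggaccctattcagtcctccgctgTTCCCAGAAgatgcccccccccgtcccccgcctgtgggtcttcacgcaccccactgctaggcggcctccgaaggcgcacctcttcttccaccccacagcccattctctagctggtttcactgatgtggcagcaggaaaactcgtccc
B2m: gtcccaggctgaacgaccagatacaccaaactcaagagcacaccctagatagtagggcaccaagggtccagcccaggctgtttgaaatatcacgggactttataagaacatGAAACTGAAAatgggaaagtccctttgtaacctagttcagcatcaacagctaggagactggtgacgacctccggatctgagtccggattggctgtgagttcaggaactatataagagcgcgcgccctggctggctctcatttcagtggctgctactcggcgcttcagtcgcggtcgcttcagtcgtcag
With both strands searched, the GC box was present in 3 of the 6 windows (Psmb9, Tap1 and Tapbp), against 35.7% of all 32851 promoter windows, and the copies in Psmb9 and Tap1 are the same site. The interferon regulatory factor element was found in 1 of 6 windows, against 3.44% of all, and TTCNNNGAA in 1 of 6, against 8.30% of all. The TATA box TATAAA was found in 2 of 6 (Psmb8 and B2m), against 13.6% of all. These motifs overlap nowhere in these windows. A match describes letters and not binding.

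Signals are MAS5 intensities on a linear scale, brought to a common trimmed mean. Values under 57.4, the pooled 30th percentile, count as the floor. Gapdh probe sets near the 3' end gave up to 40.3 times the signal of those near the 5' end in the glands, with values of 10.7, 2.49 and 22.5 in WAP-SVT/t glands and 12.9, 2.28 and 40.3 in NMRI glands. The ratio was 5.63, 0.982 and 0.969 in the tumors and 0.753 to 0.949 in the lines. Probe sets of Tap1 other than 1416016_at (1420274_at, 1448177_at and 1449803_x_at) were at the floor on all 12 arrays. The other 9 probe sets of the 7 genes lay above it on all 12, and all 7 genes passed the filter on dim genes. Where a gene had several, the probe set with the highest mean stands for it: 1421812_at for Tapbp and 1452428_a_at for B2m.

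**Figure D1:**
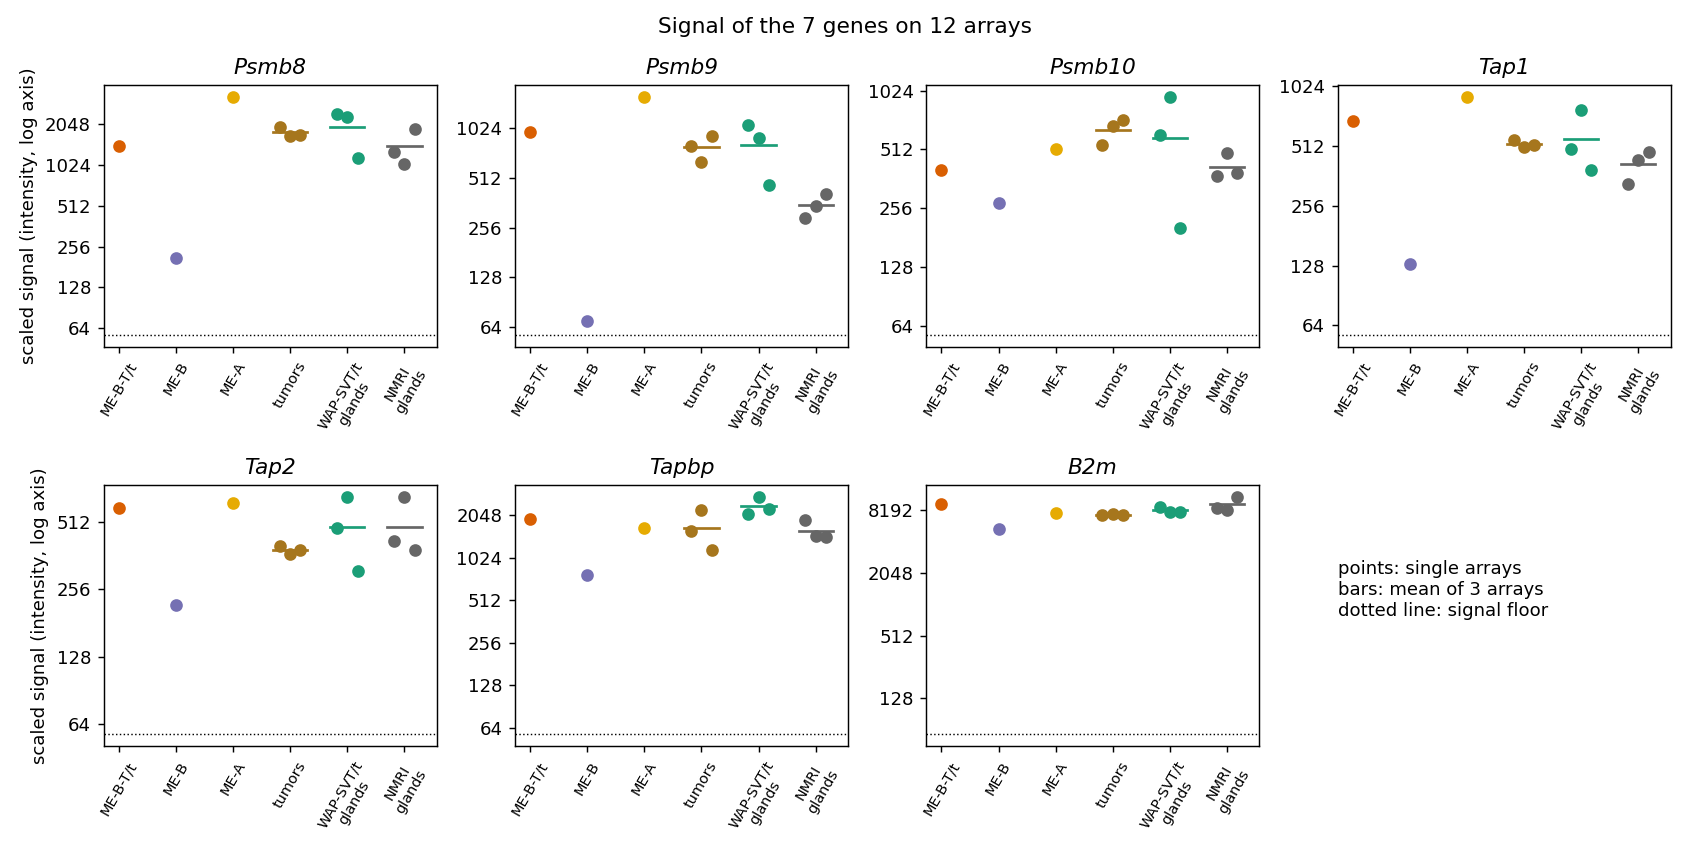
Scaled signal (intensity, log axis) of Psmb8, Psmb9, Psmb10, Tap1, Tap2, Tapbp and B2m on each of the 12 arrays, with 1 point per array, a bar at the mean of each group of 3 and a dotted line at the floor of 57.4. ME-B is the lowest group by mean for every gene, and Psmb9 lies at 637 to 918 in tumors and at 295 to 411 in NMRI glands.

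The revertant line ME-B had lower signal than ME-B-T/t and than ME-A for all 7 genes. Immunosubunits differed by up to 22.7-fold between ME-B and ME-A and by up to 13.8-fold between ME-B-T/t and ME-B. Between ME-B-T/t and ME-A the differences stayed under 2-fold for 6 of the 7 genes. With 1 array a line there is no replicate check and no test, so these are differences between 3 RNA samples.

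Psmb9, an immunosubunit that replaces the Psmb6 product, had a signal of 970.3 in ME-B-T/t, 70.1 in ME-B and 1593 in ME-A. ME-B was thus close to the floor for this gene, ME-A lay above every tissue array, and ME-B-T/t above all of them except WAP-SVT/t gland 1. Psmb9 was 13.8-fold higher in ME-B-T/t than in ME-B, rank 10 of 7945 genes among rises, and 22.7-fold lower in ME-B than in ME-A, rank 40 among falls. Psmb8, which replaces the Psmb5 product, had signals of 1412 in ME-B-T/t, 212 in ME-B and 3239 in ME-A. It was 6.65-fold higher in ME-B-T/t than in ME-B and 15.3-fold lower in ME-B than in ME-A. Psmb8 was also the one gene of the 7 that stayed 2-fold or more below ME-A in ME-B-T/t, by 2.29-fold. Psmb10, which replaces the Psmb7 product, moved least among the immunosubunits, with signals of 401 in ME-B-T/t, 273 in ME-B and 517 in ME-A, or differences of 1.47-fold and 1.90-fold.

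Tap1, a chain of the transporter dimer, had signals of 679 in ME-B-T/t, 131 in ME-B and 902 in ME-A. It was 5.20-fold higher in ME-B-T/t than in ME-B and 6.91-fold lower in ME-B than in ME-A. Tap2, its partner, had 589 in ME-B-T/t, 217 in ME-B and 625 in ME-A. The Tap2 differences, 2.71-fold and 2.88-fold, were smaller than those of Tap1, though both genes were lowest in ME-B.

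Tapbp had signals of 1936 in ME-B-T/t, 779 in ME-B and 1663 in ME-A, 2.48-fold higher in ME-B-T/t than in ME-B and 2.13-fold lower in ME-B than in ME-A. Its dimmer probe set 1450378_at had 599.8, 272 and 617 in the same lines, so that both probe sets put ME-B lowest. B2m had 9365 in ME-B-T/t, 5407 in ME-B and 7811 in ME-A, under 2-fold on this probe set in each comparison (1.73-fold and 1.44-fold). The second B2m probe set, 1449289_a_at, gave 5859.6 in ME-B-T/t, 3019.7 in ME-B and 6357 in ME-A, which is 2.11-fold lower in ME-B than in ME-A.

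Counted at 2-fold, 5 of the 7 genes were higher in ME-B-T/t than in ME-B, against 7.51% of all 7945 genes measured in the lines. The same 5, Psmb8, Psmb9, Tap1, Tap2 and Tapbp, were lower in ME-B than in ME-A, against 10.8% of all genes. Being 2-fold lower in ME-B than in both other lines held for 5 of 7, against 2.29% of all genes. Only Psmb8 was 2-fold lower in ME-B-T/t than in ME-A, 1 of 7 against 11.4% of all genes. The median log2 difference of all genes between these lines was between 0 and 0.04.

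**Figure D2:**
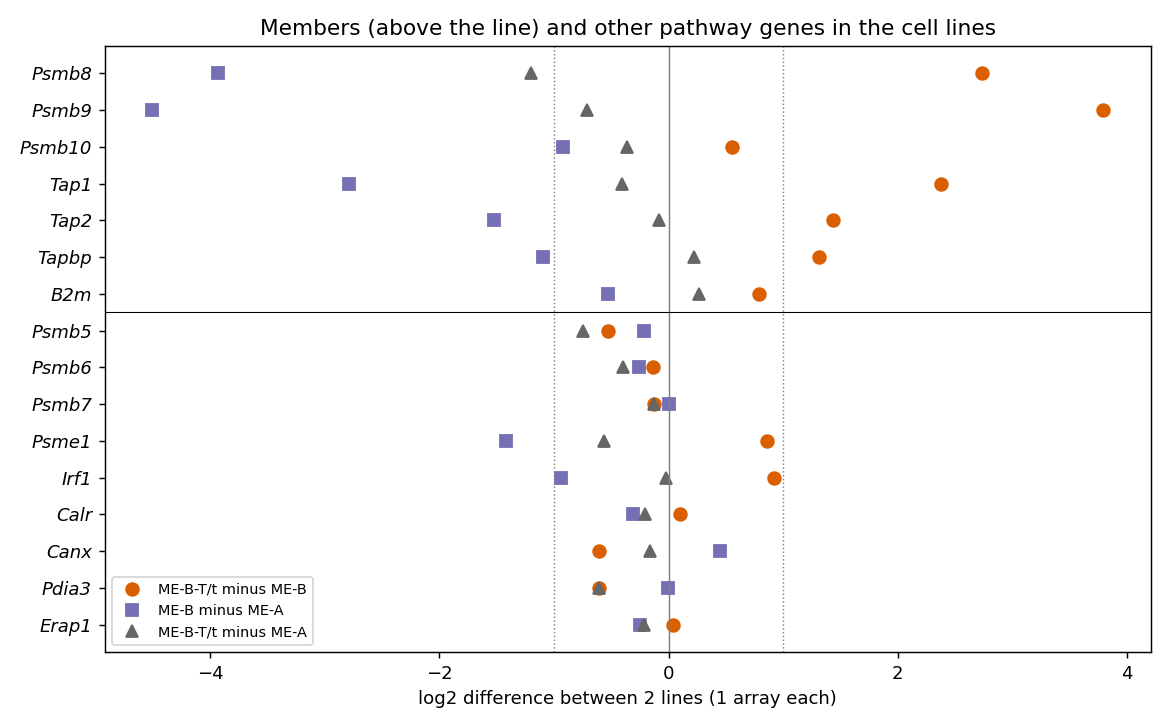
Log2 difference between 2 lines (horizontal axis, 1 array each) for the 7 genes above the line and 9 other genes of the pathway below it. Circles are ME-B-T/t minus ME-B, squares ME-B minus ME-A and triangles ME-B-T/t minus ME-A, with dotted lines at 2-fold. Squares of the 7 genes lie between -4.51 and -0.53 and circles between 0.56 and 3.79, while Psmb5, Psmb6 and Psmb7 stay within 2-fold.

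The constitutive catalytic subunits did not share this pattern. Psmb5 had 1799.9 in ME-B-T/t, 2593 in ME-B and 3015 in ME-A. Psmb6 had 1571, 1730 and 2072 in the same order, and Psmb7 had 5253, 5752 and 5752. All 3 were higher in ME-B than in ME-B-T/t, by less than 2-fold. Of the 11 other subunits of the core particle, none was 2-fold lower in ME-B than in ME-A, and none of 20 subunits of the regulatory particle was. Psme1, which encodes a subunit of the interferon-inducible proteasome activator PA28, had 1369 in ME-B-T/t, 754 in ME-B and 2017 in ME-A, a 2.68-fold lower signal in ME-B than in ME-A. It was the only 1 of 8 activator and assembly genes to pass 2-fold there.

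Other genes of peptide loading differed less. Erap1, the aminopeptidase that trims peptides in the endoplasmic reticulum, had 217 in ME-B-T/t, 212 in ME-B and 252 in ME-A. The chaperone genes Calr, Canx and Pdia3 differed by at most 1.53-fold between lines, and Canx was highest in ME-B. For the heavy chain gene H2-K1, probe set 1425336_x_at had 8184 in ME-B-T/t, 3007 in ME-B and 8755 in ME-A, again lowest in ME-B.

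Most interferon response genes were also low in ME-B. Irf1, a transcription factor that activates class I genes, had 751 in ME-B-T/t, 396 in ME-B and 761 in ME-A. Of 13 measured interferon response genes, 13 were 2-fold or more higher in ME-B-T/t than in ME-B and 11 were 2-fold or more lower in ME-B than in ME-A, with median log2 differences of 2.86 and -2.68. Among them Oasl2, an interferon-induced member of the oligoadenylate synthetase family, had 1041 in ME-B-T/t and was at the floor in ME-B, against 1502 in ME-A. Usp18, a protease that removes ISG15 from proteins, had 1560.3 in ME-B-T/t, 87.2 in ME-B and 1277 in ME-A. Ifng itself was at the floor on all 12 arrays. Of 14 genes of interferon signalling and class I regulation, 4 were 2-fold higher in ME-B-T/t than in ME-B and 3 were 2-fold lower in ME-B than in ME-A. Nlrc5 and Psme2 had no probe set that names 1 gene and were not analysed here.

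The lines also differed in markers of cell type. Of 9 measured luminal epithelial genes, 9 were 2-fold or more lower in ME-B than in ME-A and 9 were lower in ME-B-T/t than in ME-A, with median log2 differences of -5.39 and -5.53. Epcam, Cldn7 and Elf5, which encode a surface adhesion protein, a tight junction protein and an alveolar transcription factor, were at the floor in ME-B-T/t and ME-B, against 5306, 3549 and 3148 in ME-A. Between ME-B-T/t and ME-B, where 5 of the 7 genes were 2-fold or more higher, 1 of the 9 luminal genes was higher and 1 was lower. Of 8 measured fibroblast and matrix genes, 3 were 2-fold or more higher in ME-B-T/t than in ME-B, among them the collagen gene Col1a1 (9.27-fold) and Postn, which encodes the matrix protein periostin (4.89-fold). In the same list 6 were higher in ME-B than in ME-A and 7 were higher in ME-B-T/t than in ME-A, with median log2 differences of 2.11 and 4.18. The part of these differences between lines in the values of the 7 genes was not tested. Of 16 myeloid markers, 8 were at the floor in all 3 lines: Ptprc, Aif1, Mpeg1, C1qa, C1qc, Fcer1g, Itgam and Ctss. Ratios of Gapdh signals in the lines lay within 0.753 to 0.949.

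In tissue, only Psmb9 among the 7 genes passed a test, in the fit without sample numbers as a block. With that block it did not pass for WAP-SVT/t against NMRI glands (limma adjusted p = 0.0632). For tumors against NMRI glands it still passed (limma adjusted p = 0.0328). Glands of WAP-SVT/t mice and tumors both had more Psmb9 signal than NMRI glands, by 2.20-fold and 2.24-fold. Signals were 806, 637 and 918 in tumors, 1072, 895 and 467 in WAP-SVT/t glands and 295, 348 and 411 in NMRI glands. No array of the tumors or of the WAP-SVT/t glands fell to the level of an NMRI gland, while tumors and WAP-SVT/t glands overlapped.

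For WAP-SVT/t glands against NMRI glands, the Psmb9 log2 difference was 1.14 ± 0.32 (SE, n = 3 each; 95% interval 0.43 to 1.84; adjusted p = 0.0463, limma with Benjamini-Hochberg adjustment over 7899 genes). It was 1 of 7 genes past an adjusted p of 0.05, against 10.1% of all genes tested. The call stood close to the threshold: with sample numbers as a block, which pair these 2 groups, limma gave an adjusted p of 0.0632 over the 9 tissue arrays, and of 0.0547 over the 6 glands alone. It was kept under 8 of 24 other settings, with adjusted p from 0.00646 to 0.304 in limma. Leaving out 1 array changed it in 8 of 9 cases, to an adjusted p of at most 0.167 (limma), the exception being WAP-SVT/t gland 3.

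For tumors against NMRI glands, the Psmb9 log2 difference was 1.16 ± 0.32 (SE, n = 3 each; 95% interval 0.46 to 1.86; limma adjusted p = 0.0220). This was again 1 of 7, against 24.7% of all genes, so that the share called among the 7 genes was below the background. The call was kept under 16 of 23 other settings, with limma adjusted p from 0.00503 to 0.118. It was lost without tumor 1 or 3 and without NMRI gland 1 or 2 (limma adjusted p 0.0583 to 0.0827), and with the Gapdh ratio as a covariate (limma adjusted p = 0.0970, log2 difference 1.06). In both comparisons the control glands are the same 3 arrays.

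**Figure D3:**
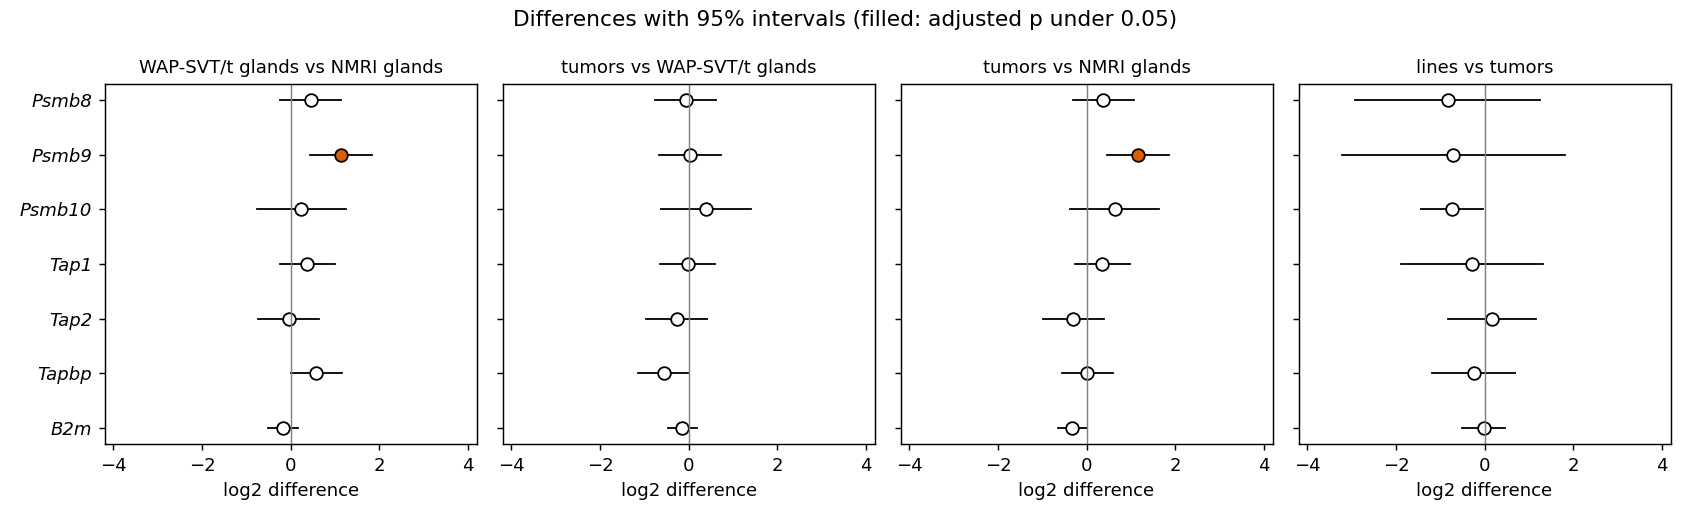
Log2 differences of the 7 genes with 95% intervals in the 4 comparisons that have 3 arrays a class; filled points passed an adjusted p of 0.05. Psmb9 is the only filled point, at 1.14 for WAP-SVT/t glands against NMRI glands and at 1.16 for tumors against NMRI glands. The fits shown do not use sample numbers as a block.

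The other immunosubunits did not pass. Psmb8 had 1941, 1676 and 1692 in tumors, 2402, 2299 and 1149 in WAP-SVT/t glands and 1261, 1042 and 1893 in NMRI glands. WAP-SVT/t gland 3 and NMRI gland 3 overlapped the other group, and the log2 differences from NMRI glands were 0.38 ± 0.32 for tumors and 0.45 ± 0.32 for WAP-SVT/t glands (SE). Psmb10 had 539.7, 676 and 723 in tumors, 609, 953 and 201 in WAP-SVT/t glands and 374, 490.4 and 386 in NMRI glands. Every tumor lay above every NMRI gland, but the log2 difference of 0.63 ± 0.46 (SE) had a limma adjusted p of 0.344.

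Among the transporter genes, Tap1 had 549, 504 and 516 in tumors, 492, 779 and 385 in WAP-SVT/t glands and 328, 432 and 476 in NMRI glands. All 3 tumors were above all 3 NMRI glands, with a log2 difference of 0.36 ± 0.28 (SE, limma adjusted p = 0.385). Tap2 had 401, 369.9 and 384 in tumors, 481, 665 and 308 in WAP-SVT/t glands and 421, 663 and 382 in NMRI glands. Its groups overlapped in each tissue comparison, and gland 2 was the highest of both gland groups.

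Of the loading genes, Tapbp had 1593, 2226 and 1176 in tumors, 2104, 2789 and 2274 in WAP-SVT/t glands and 1900.1, 1454 and 1446 in NMRI glands. The WAP-SVT/t glands did not overlap the NMRI glands, and the log2 difference was 0.58 ± 0.26 (SE, limma adjusted p = 0.186). The second Tapbp probe set had 142, 405 and 273 in tumors, 161, 411 and 85.4 in WAP-SVT/t glands and 112, 389.8 and 63.4 in NMRI glands, with overlap between all groups. B2m had the brightest signals, at 7458, 7514 and 7383 in tumors, 8828, 7907 and 7953 in WAP-SVT/t glands and 8716, 8261 and 11135 in NMRI glands. Tumors lay below both gland groups without overlap, by log2 differences of -0.14 ± 0.15 from WAP-SVT/t glands and -0.32 ± 0.15 from NMRI glands (SE; limma adjusted p = 0.694 and 0.148). The second B2m probe set disagreed in direction with the first for WAP-SVT/t glands against NMRI glands, with log2 differences of 0.46 and -0.18, and for tumors against NMRI glands, with 0.06 and -0.32. Its signals were 4972, 4676 and 5295 in tumors, 5386, 6560.5 and 7946 in WAP-SVT/t glands and 4469, 3427 and 7104 in NMRI glands.

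Groups that do not overlap were common on these arrays. Psmb9 and Tapbp did not overlap between WAP-SVT/t and NMRI glands, 2 of 7 against 31.1% of all genes. Psmb9, Psmb10, Tap1 and B2m did not overlap between tumors and NMRI glands, 4 of 7 against 43.9%. Between tumors and WAP-SVT/t glands B2m alone did not overlap, 1 of 7 against 19.6%, and 0 of 7 genes passed the adjusted threshold in limma, against 2.95% of all genes. At an unadjusted p under 0.05 the count there was also 0. In bulk tissue, fewer cells of a type and less RNA per cell cannot be told apart.

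Other measured features also differed between the tissue groups. Myeloid markers summed to 19921 to 23939.7 in tumors, 13839 to 27217 in WAP-SVT/t glands and 12803 to 20794.5 in NMRI glands. Their mean log2 signal was 9.74 to 9.87 in tumors, 9.047 to 10.01 in WAP-SVT/t glands and 8.60 to 9.033 in NMRI glands. By this mean neither tumors nor WAP-SVT/t glands overlapped NMRI glands. The median log2 difference of the 15 tested was 1.01 for tumors and 1.05 for WAP-SVT/t glands against NMRI glands. WAP-SVT/t gland 1, with the highest Psmb9 of the tissue arrays (1072), had a myeloid sum of 13839. Gland 2 of that group, with Psmb9 at 895, had a sum of 27217, and gland 3, with Psmb9 at 467, had a sum of 22762. Of 15 tested, 8 were higher and 1 was lower in tumors than in NMRI glands, and 3 were higher in WAP-SVT/t glands than in NMRI glands, led by Aif1, Mpeg1 and C1qb. Only Itgam of the 16 was at the floor in all tissues. T and NK cell markers had sums of 514 to 556 in tumors, 827 to 2668 in WAP-SVT/t glands and 1624 to 2343 in NMRI glands. Of these 14 genes, 12, 11 and 10 were at the floor in the tumors, so the tumor sums are mostly floor-level signal. In WAP-SVT/t glands 5, 2 and 6 were at the floor, and in NMRI glands 6, 4 and 4. Of 5 tested, 4 were lower in tumors than in NMRI glands and 3 were lower in WAP-SVT/t glands than in NMRI glands. Skeletal muscle markers summed to 10945, 363 and 239 in tumors, 865, 1139 and 20042 in WAP-SVT/t glands and 22400, 10916 and 15602 in NMRI glands. WAP-SVT/t gland 3, with the lowest Psmb9 of its group, alone of the 3 had muscle signal in the range of NMRI glands. That array also had the highest Gapdh ratio of its group (22.5). Tumor 1, with Psmb9 at 806, had muscle signal in that range too. Of 9 muscle markers, 2 were lower in tumors than in NMRI glands, against 24.7% of all genes called in either direction. Between WAP-SVT/t and NMRI glands 0 of the 9 were called, against 10.1%. Markers of other cell types were also lower in tumors than in NMRI glands, with 6 of 6 basal epithelial, 5 of 5 adipocyte and 4 of 7 endothelial genes tested. Of 5 B and plasma cell genes tested, 1 was lower in tumors and 1 was higher in WAP-SVT/t glands than in NMRI glands. Of 6 dendritic cell and class II genes tested, 1 was higher in tumors and 1 was higher in WAP-SVT/t glands than in NMRI glands. Of 10 fibroblast and matrix genes, 2 were higher and 1 was lower in tumors, and 2 were higher in WAP-SVT/t glands, than in NMRI glands. Of 9 luminal genes, 3 were lower in tumors and 1 was lower in WAP-SVT/t glands than in NMRI glands. Over all genes, 24.7% were called between tumors and NMRI glands and 10.1% between the gland groups. The fibroblast, luminal and muscle counts for tumors lay near the first of these shares. The part of any of these cells in the Psmb9 result was not tested.

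**Figure D4:**
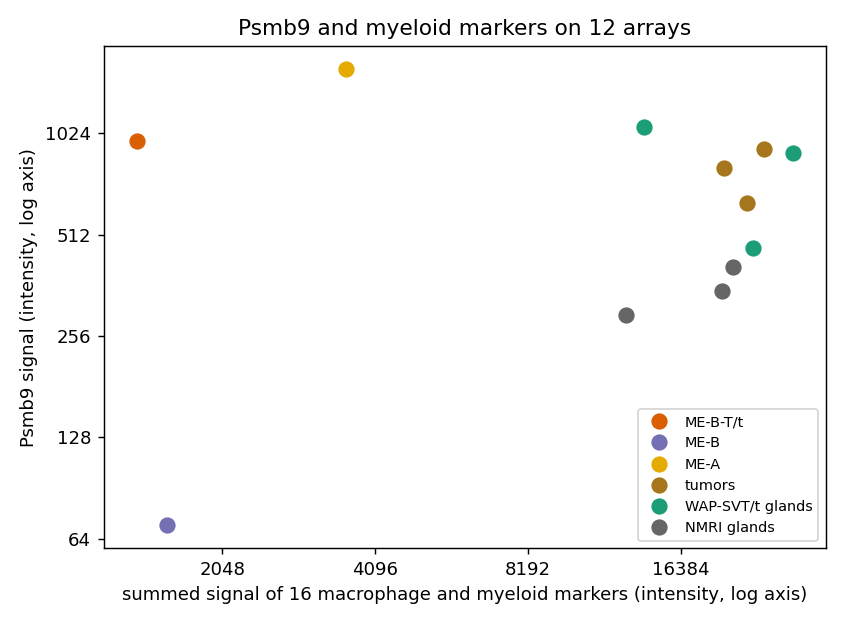
Psmb9 signal (vertical, log axis) against the summed signal of 16 macrophage and myeloid markers (horizontal, log axis), 1 point per array. ME-B-T/t and ME-A combine high Psmb9 with myeloid sums of 1389 and 3597, and the 3 NMRI glands have the lowest Psmb9 among the tissues at sums of 12803 to 20794.5.

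Class I heavy chain probe sets differed in opposite directions: H2-D1 probe set 1425614_x_at had 5471, 2702 and 726 in tumors, 4276, 5175 and 5116 in WAP-SVT/t glands and 13.1, 19.8 and 78.8 in NMRI glands, whereas 1451784_x_at had 163, 4365 and 6244 in tumors, 145, 161 and 144 in WAP-SVT/t glands and 6534, 8299 and 7128 in NMRI glands. Tumors 2 and 3 had signal on both, H2-K1 probe sets 1427746_x_at and 1451931_x_at showed a like split, and the part of this in the values of Psmb9 and its neighbors on chromosome 17 was not tested.

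Interferon response genes in the tissues were also read. Of 14 tested, 4 were higher and 1 was lower in tumors than in NMRI glands, against 24.7% of all genes called in either direction. Their median log2 difference was 0.47 against 0.02 for all genes. In WAP-SVT/t glands 2 of the 14 were higher than in NMRI glands, Ifit2 and Oasl2, against 10.1% of all genes. The median there was 0.58 against 0.01. Irf1 did not pass, at 843 ± 39.0 in tumors, 809 ± 195 in WAP-SVT/t glands and 841 ± 115 in NMRI glands (SD, n = 3 each). Psme1 averaged 2033 ± 296 in tumors, 2389 ± 234 in WAP-SVT/t glands and 1732 ± 235 in NMRI glands (SD, n = 3 each), and its difference did not pass in any tissue comparison. Of the 8 activator and assembly genes, 2 were higher in tumors than in NMRI glands, near the 24.7% of all genes called in either direction. These were the assembly chaperone genes Psmg1 and Psmg2, with log2 differences of 0.71 and 1.74 (limma adjusted p = 0.0431 and 0.00474). Erap1, Calr, Canx and Pdia3 did not pass either, and neither did Psmb5, Psmb6 and Psmb7. Each Calr probe set was nonetheless lower in tumors and WAP-SVT/t glands than in NMRI glands without overlap, which was common on these arrays. Calr probe set 1433806_x_at had 3359, 3189 and 3203 in tumors. It had 3105, 4040 and 3572 in WAP-SVT/t glands and 6780, 5266 and 5448 in NMRI glands. Among the 11 other subunits of the core particle, 2 were higher in WAP-SVT/t glands than in NMRI glands, against 10.1% of all genes. In tumors 1 of the 11 was higher than in NMRI glands, against 24.7%. Psmb4, a non-catalytic subunit, was among them in both, with log2 differences of 0.71 and 0.75 (limma adjusted p = 0.0435 and 0.0185).

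Each immunosubunit was then set against the subunit whose place it takes, within each array. The log2 difference Psmb9 minus Psmb6 was higher by 1.34 in tumors and by 1.16 in WAP-SVT/t glands than in NMRI glands, without overlap (exact two-sided permutation p = 0.1 in both, the smallest p that 3 arrays against 3 allow; 0.3 after Benjamini-Hochberg adjustment over 12 tests). Psmb6 itself differed by -0.18 and -0.03 in these comparisons and Psmb9 by 1.16 and 1.14. Psmb10 minus Psmb7 was higher by 1.06 in tumors than in NMRI glands, with log2 differences of 0.63 for Psmb10 and -0.43 for Psmb7 (exact permutation p = 0.1). Psmb8 minus Psmb5 differed by 0.02 and 0.25 in the same 2 comparisons (exact permutation p = 1 and 0.5). Between lines the pairs differed most for Psmb9 minus Psmb6, by 3.93 for ME-B-T/t minus ME-B and by -4.25 for ME-B minus ME-A.

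Lines as a class were also set against tumors. The 3 arrays of this class are different lines and not replicates, so its spread holds the differences between lines. No gene of the 7 passed, 0 of 7 in limma against 2.30% of 7344 genes, and 1 had an unadjusted p under 0.05. That gene was Psmb10, which averaged 397 ± 122 in lines and 646 ± 95.2 in tumors (SD, n = 3 each), with a log2 difference of -0.74 ± 0.30 (SE, limma adjusted p = 0.276). It was the only gene of the 7 without overlap, 1 of 7 against 23.5% of all genes. For Psmb9 the log2 difference was -0.71 ± 1.07 (SE), and for Psmb8 -0.83 ± 0.89. Leaving out ME-B turned these to 0.68 and 0.28. In this comparison, 14 of 15 myeloid markers were lower in the lines.

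By mean level over the 6 groups, ME-B was lowest for all 7 genes on the probe set that stands for each. ME-A was highest for Psmb8, Psmb9, Tap1 and Tap2, WAP-SVT/t glands for Tapbp, tumors for Psmb10 and NMRI glands for B2m. On the second Tapbp probe set WAP-SVT/t glands (219) and NMRI glands (188) lay below ME-B (272), with ME-A (617) highest, and on the second B2m probe set WAP-SVT/t glands (6631) were highest. For Psmb9 the order was ME-A (1593), ME-B-T/t (970.3), WAP-SVT/t glands (811 ± 311), tumors (787 ± 141), NMRI glands (351 ± 57.9) and ME-B (70.1), with SD over 3 arrays. Tumors and WAP-SVT/t glands, neighbors in that order, did not differ beyond their spread. For Tap1 the order was ME-A (902), ME-B-T/t (679), WAP-SVT/t glands (552 ± 204), tumors (523 ± 23.4), NMRI glands (412 ± 76.0) and ME-B (131), where tumors and WAP-SVT/t glands overlapped, every tumor lay above every NMRI gland, and neither neighboring difference passed the test. Tumors varied little for Tap1, Tap2 and B2m, where the highest and the lowest tumor were close, and WAP-SVT/t glands varied most for Psmb10, from 201 to 953.

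Across the 12 arrays the 7 genes followed their common pattern, the mean of their standardized log2 signals, to unequal degrees. Pearson's r with it was 0.957 for Tap1, 0.947 for Psmb8, 0.910 for Psmb9 and 0.640 for B2m. Each of the 7 genes is itself part of the mean, so its r is not independent of it. Over the 9 tissue arrays r lay between -0.01 for B2m and 0.880 for Tap1. Of all other genes, those most like the pattern over 12 arrays were Ifit3 (r = 0.944), Igtp (0.936), Uba7 (0.904), Shfl (0.896), Irf9 (0.890), Irf1 (0.878), Tmub2 (0.878) and Mitd1 (0.870). Igtp is an interferon-gamma-induced GTPase, Uba7 the activating enzyme for ISG15, and Irf9 a DNA-binding factor of type I interferon signalling. All 8 were lower in ME-B than in ME-A, by 1.92-fold (Irf1) to 8.86-fold (Irf9), and Ifit3, Uba7 and Shfl were at the floor in ME-B. These are descriptions over arrays that share a scale, and ME-B is the array farthest from the rest. Over the 9 tissue arrays the 8 genes most like the pattern were others, Tomm34, Mrpl16, Mrpl4, Abcf1, Rgl2, Egln2, Gnb5 and Arfgap1 (r = 0.869 to 0.947), and WAP-SVT/t gland 2 was the highest tissue array for 6 of them.

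**Figure D5:**
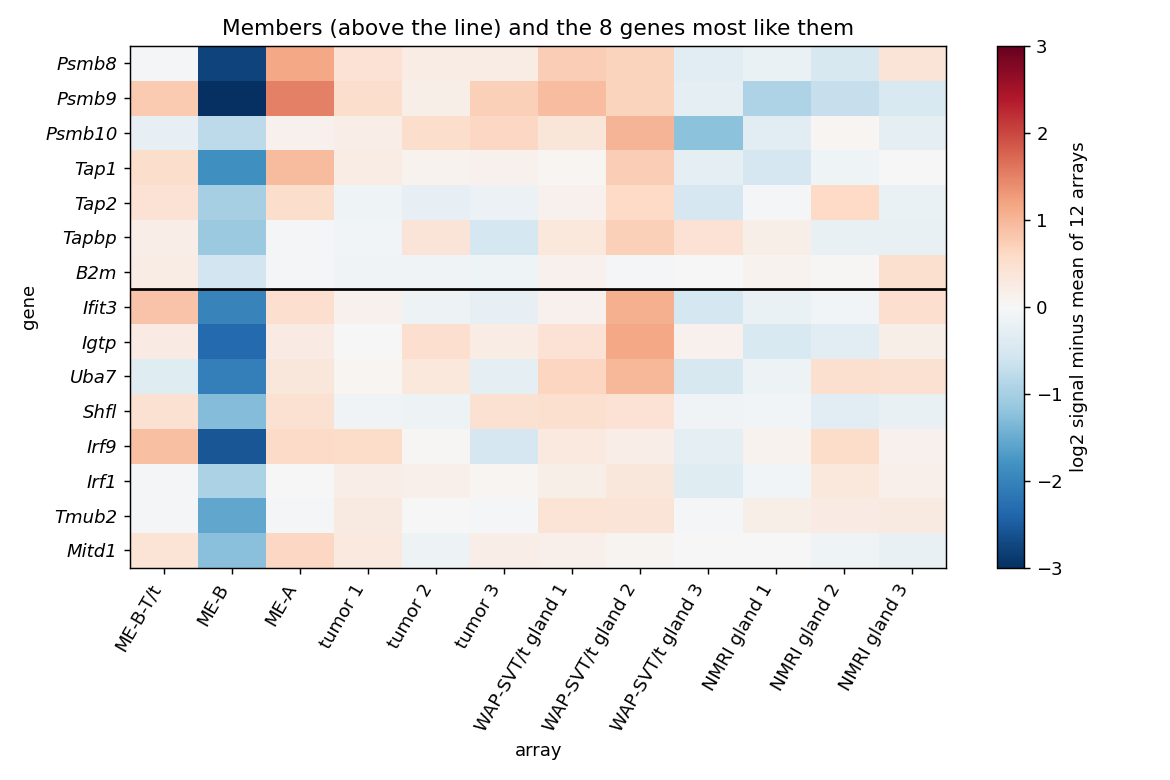
Log2 signal minus the mean of 12 arrays (color) for the 7 genes above the line and the 8 genes with the most similar pattern below it, 1 column per array. ME-B is the darkest column for Psmb8, Psmb9 and Tap1 and for all 8 other genes, whose r with the common pattern was 0.870 to 0.944.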

How the data were processed

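RNA of 12 samples was hybridised as biotin-labelled cRNA to single-color arrays, per the labels' protocols. The deposited values are probe set signals, an intensity on a linear scale that the authors made with MAS5, per the submitters' processing notes; its version, scaling target and detection calls were not given in the sources used here. Each array was scaled to a common mean without the lowest and highest 2% of signals (largest ratio between arrays 1.19), and signals below the pooled 30th percentile of 57.4 were raised to it before the log2 transformation. The share of probe sets above this floor was 67.7% to 72.6% per array, and the number of arrays limits the precision. The probe set with the highest mean stood for a gene, kept where 3 arrays (between lines, 1 line) exceeded the pooled median of 139.9.

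Differences were fitted across all genes in limma 3.58.1 under R 4.3.3 (lmFit, eBayes with an intensity trend, two-sided, Benjamini-Hochberg over all genes tested, adjusted p under 0.05): the 9 tissue arrays in 1 fit (residual degrees of freedom 6), lines against tumors in another (residual degrees of freedom 4). The method was tested on simulated data. Lines were compared with each other at 2-fold with no test. Subunit pairs were tested by exact permutation. Figures used matplotlib 3.10.9 in Python 3.11.15. The members and the 19 gene lists, of which 194 of 218 genes had a probe set, were chosen with earlier results of these data known. Named were the members, the constitutive subunits, PA28, interferon regulators and loading genes, up to 3 called genes of other lists, with the smallest p or, between lines, the largest difference, listed markers at the floor, and the 8 genes most correlated with the members.

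Sample numbers are those of the labels. Same-numbered WAP-SVT/t and NMRI glands deviated together from their group means (r = 0.22, 0.37 and 0.37 over genes), so the numbers were taken to pair these groups, from the data and not from a stated litter or batch. Same-numbered glands also ranked alike by Gapdh ratio, with 10.7 and 12.9, 2.49 and 2.28, and 22.5 and 40.3. The part of this ratio in the shared deviations was not tested. Alternatives covered scaling, floor, filter, probe sets, intensity trend, arrays in the fit, sample number and Gapdh ratio as terms, and leaving out arrays. RefSeq promoter windows were on GRCm38.p6.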

Additional observations from a re-analysis of the deposited data

How the results depend on the processing

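Psmb9 kept its direction against NMRI glands in every alternative run, and the counts of 5, 5 and 1 genes past 2-fold between lines held under scaling, floor and pseudocount alternatives; with the mean of all probe sets 4 of 7 remained in each comparison with ME-B, since the Tap1 sets at the floor pull its differences to 0.59 and -0.70. The number of the 7 genes called fell to 0 for WAP-SVT/t against NMRI glands under quantile normalization, without the filter on dim genes, with the mean of all probe sets, with every probe set on its own, with only these 2 groups, with the sample number as a block (adjusted p of Psmb9 0.0632 in limma, 0.0547 in the 6 glands alone, added after seeing the data), and ranged from 0 to 1 without 1 array. For tumors against NMRI glands it fell to 0 without the filter and with the Gapdh covariate and ranged from 0 to 1 without 1 array; the block there kept the call (log2 1.16, limma adjusted p 0.0328), although those numbers did not deviate together (r = 0.01, 0.16 and -0.10; against WAP-SVT/t glands -0.17, 0.33 and -0.10), and it changed no other call of the 7 genes. Without the 4 gland arrays with a Gapdh ratio above 10, also added after seeing the data, 1 array was left in each gland group, which is assumed to vary like the tumors, and 0 of 7 genes were called in each tissue comparison; all genes called were then 27, 0 and 371, in the order WAP-SVT/t against NMRI glands, tumors against WAP-SVT/t glands and tumors against NMRI glands.

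Over all genes, 801, 233 and 1949 were called in these comparisons and 169 for lines against tumors. Tumors against WAP-SVT/t glands gave 71 without the filter, 124 with only these groups and 101 with the Gapdh covariate. Lines against tumors gave 91 without the filter, 260 by probe set and 429 with all 12 arrays as 4 classes. Without 1 array the counts ranged from 394 to 807, 69 to 228, 1227 to 2279 and 0 to 779.

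Sign changes were limited to differences that passed no test, and their cause was not tested. For WAP-SVT/t against NMRI glands, Tap2 was 0.0628 unscaled and 0.00507 without the 4 arrays (range without 1 array -0.30 to 0.25), B2m was 0.0806 by quantile and 0.14 by mean probe set, and Psmb10 ranged from -0.24 to 0.88 without 1 array. For tumors against WAP-SVT/t glands, Psmb9 was -0.000824 unscaled, -0.0387 by quantile, -0.0347 by median scaling, -0.0649 with the Gapdh covariate and -0.20 without the 4 arrays (-0.33 to 0.27 without 1 array), B2m was 0.24 by quantile, Psmb8 0.0180 and Psmb10 -0.21 with the covariate, and Psmb10 -0.57 without the 4 arrays. Without 1 array, Psmb8 ranged from -0.41 to 0.12, Psmb10 from -0.25 to 0.87, Tap1 from -0.24 to 0.26 and Tap2 from -0.55 to 0.000775. For tumors against NMRI glands, B2m was 0.32 by quantile, Tapbp -0.0338 by median scaling and -0.0494 with the covariate (-0.21 to 0.25 without 1 array), and Psmb10 -0.0526 with the covariate. For lines against tumors, B2m was 0.020 unscaled and Tapbp 0.33 by mean probe set. Without 1 array, mostly without ME-B, Psmb8 ranged from -1.69 to 0.28, Psmb9 from -1.58 to 0.68, Tap1 from -0.81 to 0.58, Tap2 from -0.11 to 0.66, Tapbp from -0.50 to 0.16 and B2m from -0.20 to 0.20.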
